A study of Mus musculus with 12 samples.

Results

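The comparison described here set mature CD24 DCs of the mouse spleen against pre-CD8 cells of the bone marrow, their committed progenitor, over all genes of the array. Its members are the arrays titled CD24 (n = 3) and Pre-CD8 (n = 2), 5 of the 12 arrays of the series, chosen by their titles alone. All 5 came from N8 Zbtb46GFP/+ mice on the C57Bl/6 strain, analysed at steady state, so both groups carried a GFP reporter allele of the classical DC gene Zbtb46. Ages were not given in the sources used here. Tissue came from 8 to 10 littermates and cells were sorted to a purity above 95%. Nothing in the labels tells whether each array had mice of its own, so a p-value here weighs a difference against array-to-array spread, which may be technical. Pre-CD8 cells were gated as lineage-negative, positive for CD135 and CD11c, intermediate for CD117 and MHC class II, and Siglec H negative. The CD24 DC gate took CD11c+ CD24+ cells without CD172a and, as the label is written, without MHC class II. Marrow was crushed with mortar and pestle, whereas the spleen cells were freed enzymatically, by collagenase B with DNase. Stage, tissue and the way cells were released differ together between the groups and cannot be told apart. The CD172a DC (n = 2) and pre-CD4 (n = 2) arrays of the other lineage and the common DC progenitor (CDP, n = 3) arrays, from the same reporter mice, served as references. CD172a DCs were CD172a+ spleen cells that also carried CD11c and MHC class II. Pre-CD4 cells were lineage-negative marrow cells with CD135, CD115 and CD11c, low CD117 and no MHC class II. CDPs were lineage-negative marrow cells with CD135 and CD115, intermediate CD117, and neither CD11c nor MHC class II. RNA was amplified before it was hybridised to Affymetrix whole-transcript arrays.

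CD24 DCs of the spleen correspond to the lineage usually called type 1 conventional DCs (cDC1). These cells take up dead cells, present their antigens on MHC class I to CD8 T cells, secrete interleukin 12, and attract T cells with chemokines. They depend on the transcription factors IRF8, BATF3 and ID2 and derive from dividing marrow progenitors that migrate through the blood before they finish differentiation in tissue. Maturation here means the step from the committed marrow progenitor to the resident spleen cell, not activation by a microbe.

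Each value was a log2 expression value of a probe set as deposited by the authors. Differences are CD24 DC minus pre-CD8 on that log2 scale, so 1 is a doubling, with standard errors (SE) and Benjamini-Hochberg adjusted p-values from limma over 22180 genes. A gene is called higher or lower when its adjusted p is under 0.05. Over all probe sets, array medians lay between 4.89 and 5.24 and array means between 5.28 and 5.34. The spread of values differed more. The interquartile range was 2.59, 2.40 and 2.10 on the CD24 DC arrays and 2.70 and 2.48 on the pre-CD8 arrays. The value of CD24 DC 3 was the lowest of the 12 arrays. Across all 35145 probe sets, the CD24 DC arrays correlated at r = 0.925 to 0.962 with each other and the pre-CD8 arrays at r = 0.963. CD24 DC 2 and pre-CD8 2 correlated at 0.961, as closely as arrays of 1 group, while CD24 DC 3 and pre-CD8 1 correlated at 0.887. The pre-CD8 arrays were not alike on the axis of the comparison. Pre-CD8 2 was above pre-CD8 1 in 73.4% of the genes called higher and in 50.8% of all genes, and below it in 71.1% of the genes called lower. The labels do not give a background level, so whether a transcript at a low value was detected is unknown. In bulk samples, fewer cells of a type and less RNA per cell cannot be told apart.

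CD24 DCs were higher in 19 of 30 cDC1 genes and 13 of 27 ligand genes, and lower in 67 of 68 mitosis genes. Of 22180 genes, 1399 (6.31%) were called, 587 higher (2.65%) and 812 lower (3.66%) in CD24 DCs. Of the called genes, 458 were at least 1 log2 higher and 632 at least 1 log2 lower. At 3 log2 or more, 48 were higher and 32 lower. The groups did not overlap in any of the 1399 called genes, nor in 6397 (28.8%) of all genes. Without pre-CD8 1 the count fell to 571, 250 higher and 321 lower. Without any other array it lay between 1092 and 1942, and 222 higher and 283 lower genes were called in all 5 fits that left out an array.

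The cDC1 list held 30 measured genes, of which 19 were called higher and none lower. The share called higher among all genes was 2.65%. The list had a median difference of 1.37 against 0.05 over all genes. Cd8a, the T cell coreceptor chain by which spleen cDC1 cells were first known, read 10.55, 10.18 and 10.35 on the CD24 DC arrays and 5.01 and 6.34 on the pre-CD8 arrays. It was 25.7-fold higher (log2 difference 4.68, SE 0.32, adjusted p = 3.14e-06). Pre-CD8 2 lay above pre-CD8 1 but far below every CD24 DC array. Xcr1, the receptor for the chemokine XCL1 of activated T and NK cells, read 10.22, 10.41 and 9.66 in CD24 DCs and 6.09 and 7.83 in pre-CD8 cells. It was 8.82-fold higher (3.14, SE 0.40, adjusted p = 0.000234). Cadm1, an adhesion molecule that marks cDC1 cells across species, read 9.67, 9.78 and 9.85 against 5.17 and 6.57 (3.89, SE 0.34, adjusted p = 1.7e-05). Itgae, the CD103 integrin chain that binds E-cadherin, read 8.46, 8.35 and 7.64 against 4.33 and 5.52 (3.23, SE 0.34, adjusted p = 5.84e-05). In each of these 4 genes the groups were separated by more than the spread between arrays of a group.

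Some uptake and sensing genes of the list were also called, and Tlr11 was the only Toll-like receptor among them. Cd36, a scavenger receptor for apoptotic cells and lipids, rose by 3.00 (SE 0.34, adjusted p = 9.23e-05) from 6.36 and 7.84 to a narrow band of 10.07 to 10.13. Ly75, the uptake receptor DEC-205, rose by 2.31 (SE 0.31, adjusted p = 0.000365). Tlr11, a receptor for protozoan profilin, rose by 2.32 (SE 0.41, adjusted p = 0.00329), and its call was lost without pre-CD8 1 (adjusted p = 0.0622). The inhibitory receptor gene Btla rose by 1.35 (SE 0.30, adjusted p = 0.0163) and also lost its call without pre-CD8 1 (adjusted p = 0.318). Cd207, which encodes the lectin langerin, rose by 1.67 (SE 0.27, adjusted p = 0.0014). The CD24 gene itself, Cd24a, part of the gate of the mature group, read 11.55, 11.84 and 11.44 in CD24 DCs and 12.16 and 12.10 in pre-CD8 cells and was not called (-0.51, SE 0.22, adjusted p = 0.248). Without pre-CD8 1, 11 of the 19 cDC1 calls remained; without any other array 18 to 20 genes of the list were called.

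The cDC1 genes were sorted by whether they were called from CDP to pre-CD8 cells, from pre-CD8 cells to CD24 DCs, or in both steps. A missed call does not show that a final level had been reached. Relative to CDPs, 22 of the 30 genes were called higher in pre-CD8 cells, as were 2.29% of all genes. Of these 22, 14 were called higher again in CD24 DCs, among them Xcr1, Cd8a, Cd36, Tlr11, Btla, Ly75 and Cxcl9. The other 8 were not called in the second step: Tlr3, Tlr9, Tlr12, Naaa, Rab7b, Ifi205, Wdfy4 and Septin3. Tlr3, the endosomal receptor for double-stranded RNA, read 9.52 and 10.44 in pre-CD8 cells and 10.40, 10.58 and 9.74 in CD24 DCs, overlapping ranges with a difference of 0.26 (SE 0.31, adjusted p = 0.738). Wdfy4, which is needed for cross-presentation of cell-associated antigen, differed by 0.67 without passing the test. A further 5 genes, Itgae, Cadm1, Cd207, Plpp1 and Il12b, were called in the second step only. Clnk, Cd24a and Itgb8 were called in neither. The steps share the pre-CD8 arrays, so a low pre-CD8 value enters both differences with opposite sign, and a difference between the steps was not tested. Clec9a could not be placed, because its probe set lists several genes.

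**Figure D1:**
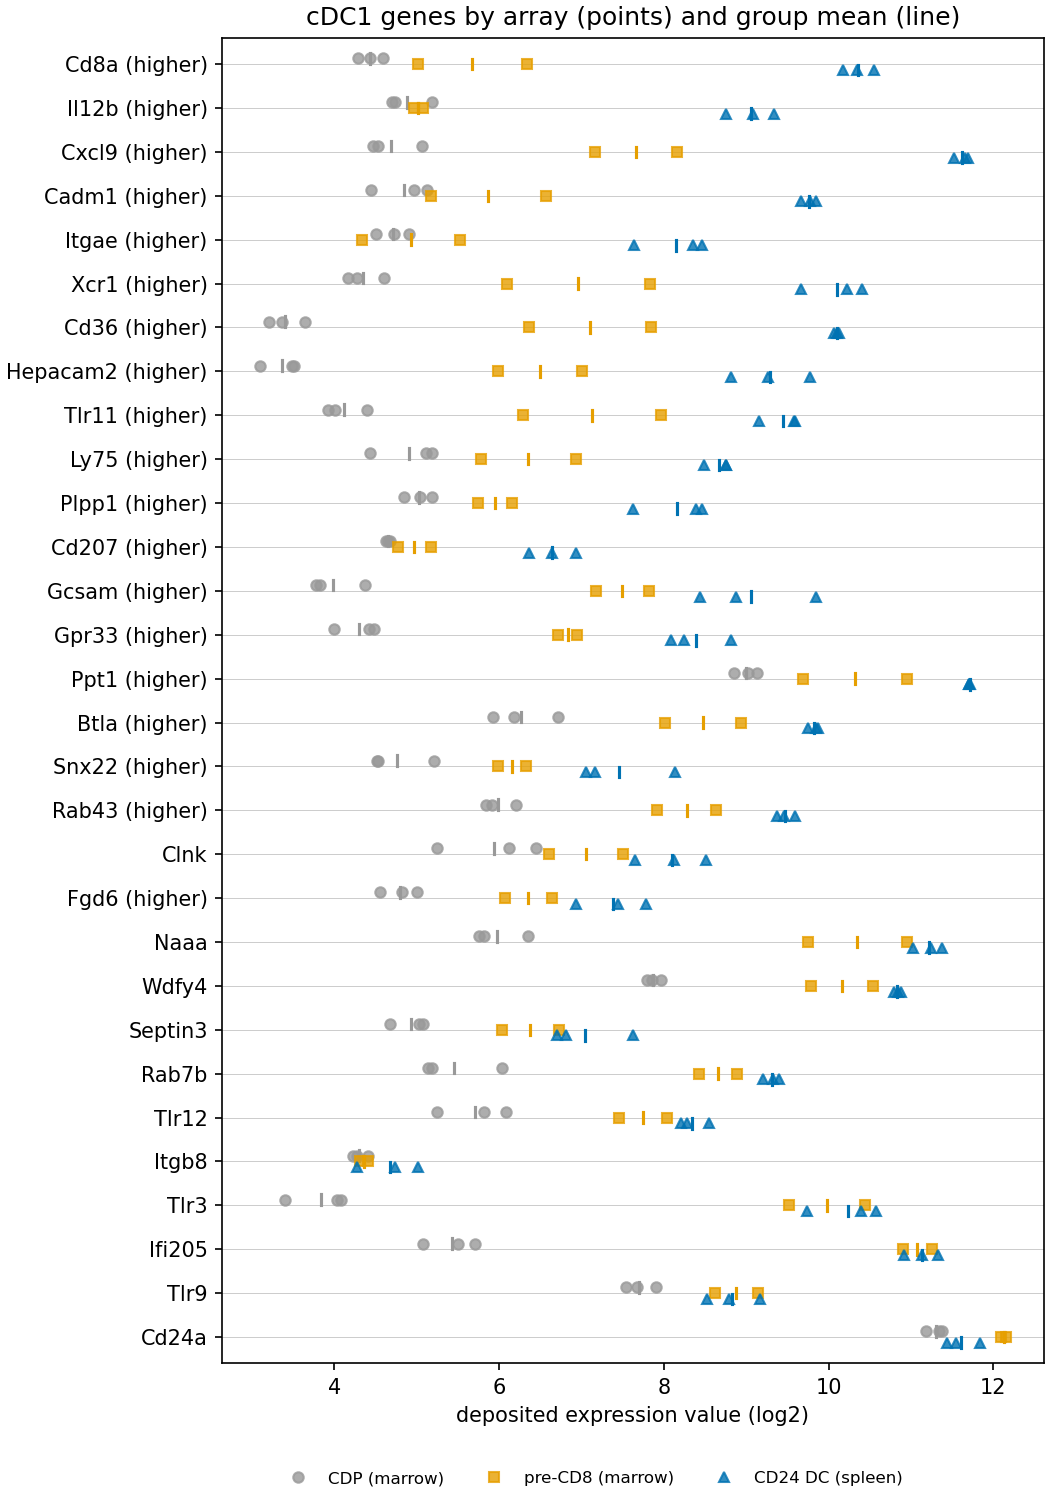
Deposited log2 values of the 30 measured cDC1 genes on each array of CDP, pre-CD8 and CD24 DC, ordered by the CD24 DC minus pre-CD8 difference; points are arrays, short lines group means, and "(higher)" marks an adjusted p under 0.05. At the top, Cd8a lies between 5.01 and 6.34 in pre-CD8 cells and between 10.18 and 10.55 in CD24 DCs, while Tlr3, Ifi205, Tlr9 and Cd24a near the bottom were not called.

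None of the transcription factors that define the lineage was called. Irf8 read 11.88, 12.15 and 11.68 in CD24 DCs and 12.16 and 12.12 in pre-CD8 cells, and its difference was -0.24 (SE 0.24, adjusted p = 0.675). Batf3 differed by -0.16 (SE 0.41, adjusted p = 0.887), Id2 by -0.08 (SE 0.20, adjusted p = 0.882) and the reporter-tagged gene Zbtb46 by 0.18 (SE 0.23, adjusted p = 0.749). A missed call does not show that the levels were alike, and the error was widest for Batf3. Against CDPs, pre-CD8 cells were already higher in Batf3 by 4.55 and in Id2 by 4.96, while Irf8 differed by 0.65 (adjusted p = 0.178). Nfil3, which acts upstream in cDC1 specification, differed by 1.18 (SE 0.39, adjusted p = 0.106), with 6.58 on CD24 DC 1 inside the pre-CD8 range. It was called without CD24 DC 1 (1.68, adjusted p = 0.00118). Of 41 factors in the list, 4 were called higher and 5 lower, beside 2.65% and 3.66% of all genes. Myc, the growth regulator, fell by 1.62 (SE 0.28, adjusted p = 0.00266), a call lost without pre-CD8 1 (adjusted p = 0.0533). Bach2, a repressor active in lymphoid and early DC progenitors, fell by 1.31 (SE 0.25, adjusted p = 0.00539), a call lost without pre-CD8 2 (adjusted p = 0.074). The NF-kB subunit gene Rel rose by 1.68 (SE 0.33, adjusted p = 0.00698), a call lost without pre-CD8 1 (adjusted p = 0.138). Of the 9 factors called, only Nr4a3, a nuclear receptor induced at once by many stimuli, was called in all 5 fits that left out an array.

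The division machinery fell nearly as a whole. Of 68 measured mitosis genes 67 were called lower, none higher, with a median difference of -2.41, a fold of 5.31. The share called lower among all genes was 3.66%. Falls among the 67 ran from -1.02 for Cks1b to -3.37 for Anln. Mki67, which encodes the proliferation antigen Ki-67, read 8.60, 8.97 and 8.02 in CD24 DCs and 10.70 and 11.02 in pre-CD8 cells (-2.33, SE 0.28, adjusted p = 0.000138), a 5.04-fold fall. Ube2c, the ubiquitin-conjugating enzyme of the anaphase-promoting complex, read 7.17, 7.54 and 6.02 against 10.05 on both pre-CD8 arrays (-3.14, SE 0.36, adjusted p = 0.000106). Ccna2, cyclin A2, read 7.45, 7.28 and 6.71 against 10.03 and 10.18 (-2.96, SE 0.24, adjusted p = 1.28e-05). CD24 DC 3 was the lowest of its group in all of these genes, as it was in 69.8% of all genes called lower and in 32.7% of all genes tested. Kinetochore genes such as Ndc80 (-2.87) and Nuf2 (-3.02), the spindle checkpoint kinase Ttk (-2.96) and the cytokinesis genes Anln and Prc1 (-2.85) fell by similar amounts. The exception was Pttg1, securin, which differed by 0.24 (adjusted p = 0.578). Between 62 and 67 of the 68 genes were called lower when any array was left out.

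Of 49 DNA replication genes measured, 21 were called lower, none higher, and 28 were not called. Among all genes 3.66% were called lower. The list had a median difference of -0.96, a fold of 1.94. A difference between this list and the mitosis list was not tested. Rrm1, the large subunit of ribonucleotide reductase, read 7.68, 7.15 and 6.36 in CD24 DCs and 8.79 and 8.78 in pre-CD8 cells (-1.72, SE 0.29, adjusted p = 0.00223). Pole, a catalytic subunit of the leading-strand polymerase, fell by 1.41 (SE 0.21, adjusted p = 0.00104) and the replication checkpoint gene Clspn by 1.30 (SE 0.18, adjusted p = 0.000552). These 3 were the replication genes called in every fit that left out an array. Pcna, the sliding clamp, differed by -0.44 (adjusted p = 0.234) and the helicase gene Mcm2 by -0.37 (adjusted p = 0.405). The count depended on single arrays: 3 without pre-CD8 1, 10 without pre-CD8 2, 12 without CD24 DC 3, 14 without CD24 DC 2 and 34 without CD24 DC 1. With all arrays kept, the count was 16 under quantile normalization, 13 under median centring and 11 under a common scale. It was 10 with every probe set tested and 3 when only the CD24 DC and pre-CD8 arrays were fitted. On the array level the list mean was 7.69 and 7.39 in pre-CD8 cells and 7.01, 6.70 and 6.19 in CD24 DCs. Ribosome biogenesis genes held 1 call in 41, Lyar (-1.03, adjusted p = 0.0391), which was lost in 3 of the fits that left out an array.

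Promoters of mitosis genes commonly carry CCAAT boxes, the site of the factor NF-Y, and a cell cycle homology region with the core TTTGAA, through which MuvB complexes act. The 250 bases before the annotated start are shown for 4 mitosis genes among the 5 with the largest falls, to let a reader see these letters in place. Sequences are from RefSeq, mouse build GRCm38.p6, 5′ to 3′ on the gene's own strand, with CCAAT or TTTGAA on either strand in capitals. Ube2c lies at chr2:164769679-164769928 (plus strand), Kif11 at chr19:37376132-37376381 (plus), Hmmr at chr11:40733438-40733687 (minus) and Anln at chr9:22389207-22389456 (minus).
Ube2c: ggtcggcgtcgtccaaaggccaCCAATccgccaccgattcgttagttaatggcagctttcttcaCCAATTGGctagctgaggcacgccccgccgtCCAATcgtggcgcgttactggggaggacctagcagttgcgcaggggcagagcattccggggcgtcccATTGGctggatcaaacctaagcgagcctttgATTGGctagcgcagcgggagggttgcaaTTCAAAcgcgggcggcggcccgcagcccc
Kif11: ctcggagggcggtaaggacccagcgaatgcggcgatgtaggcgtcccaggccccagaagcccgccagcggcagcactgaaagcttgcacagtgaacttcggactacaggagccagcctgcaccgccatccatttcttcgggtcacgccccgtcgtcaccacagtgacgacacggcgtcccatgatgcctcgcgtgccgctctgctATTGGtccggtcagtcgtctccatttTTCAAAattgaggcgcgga
Hmmr: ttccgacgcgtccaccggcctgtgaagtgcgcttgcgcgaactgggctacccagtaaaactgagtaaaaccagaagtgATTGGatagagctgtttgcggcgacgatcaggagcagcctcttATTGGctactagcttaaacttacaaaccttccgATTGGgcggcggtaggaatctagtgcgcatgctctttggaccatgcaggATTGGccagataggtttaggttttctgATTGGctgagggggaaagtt
Anln: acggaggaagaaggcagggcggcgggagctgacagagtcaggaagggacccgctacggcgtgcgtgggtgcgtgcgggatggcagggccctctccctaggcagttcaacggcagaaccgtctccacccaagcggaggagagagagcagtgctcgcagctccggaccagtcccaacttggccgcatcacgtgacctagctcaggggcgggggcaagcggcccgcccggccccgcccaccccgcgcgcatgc

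Counted from the start, with -1 for the last base before it, Ube2c held TTTGAA on the reverse strand with its first base at -29 and 6 CCAAT matches, a pair of which overlap, at -186 and -183. Kif11 held TTTGAA at -19 and CCAAT at -45, both on the reverse strand. Hmmr held 5 CCAAT matches and no TTTGAA, and Anln held neither in this window, although both genes fell by over 3 log2. Of the 68 mitosis genes 55 had a promoter in the table, and 37 of these (67.3%) held CCAAT, compared with 38.7% of all tested genes with a promoter. TTTGAA was found in 20 (36.4%) against 16.0%, and both motifs together in 17 (30.9%) against 6.56%. Among all genes called lower, 48.9% held CCAAT, 22.0% TTTGAA and 13.8% both. Of 40 DNA replication promoters 24 (60.0%) held CCAAT, 7 (17.5%) TTTGAA and 3 (7.5%) the E2F-type motif TTTCCCGC, which 1.35% of tested promoters held. A high share of CCAAT was not confined to cell cycle lists, as 12 of 17 class II presentation promoters (70.6%) held it. The share was 31.4% for ribosome biogenesis, 35.7% for interferon-stimulated and 42.9% for stress genes. A match is a string of letters and was not tested as a binding site.

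**Figure D2:**
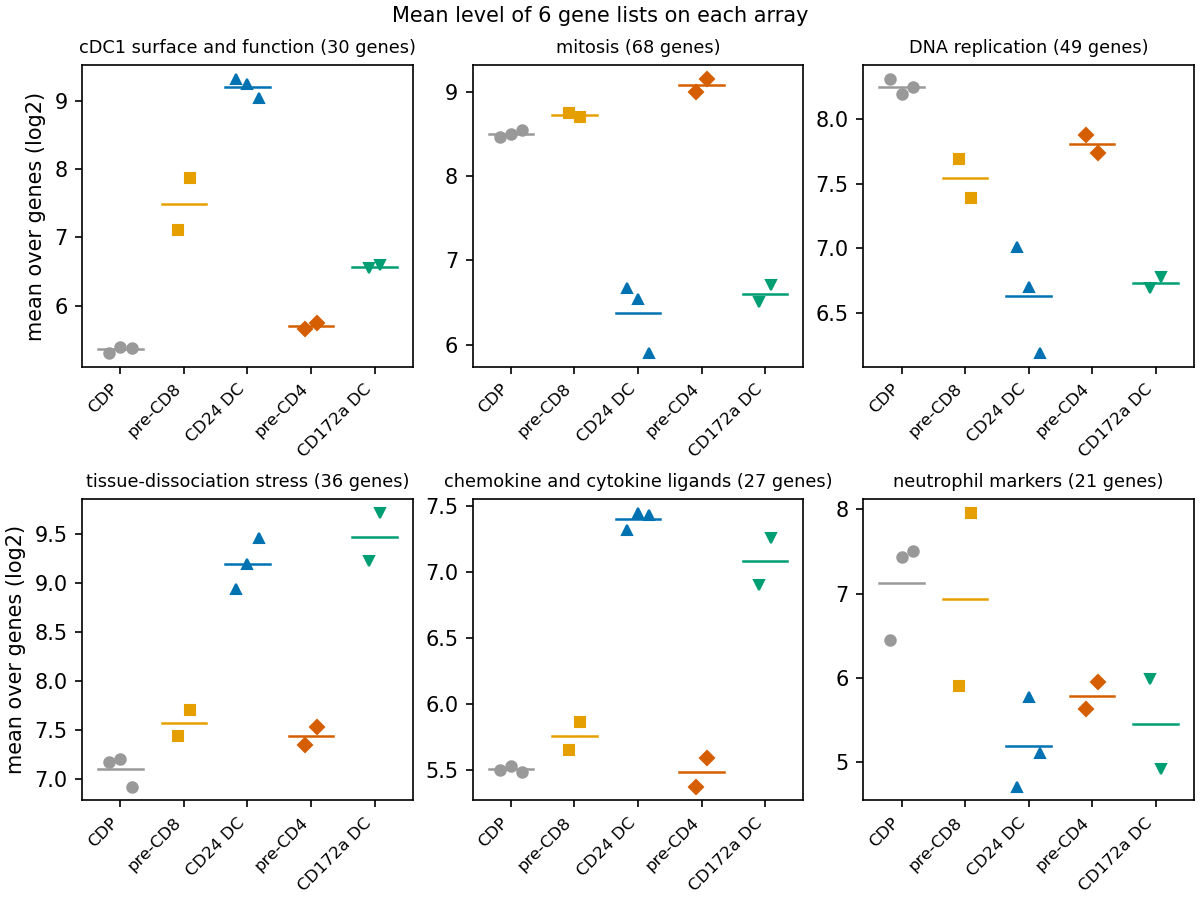
Mean deposited log2 value over the measured genes of 6 lists on each of the 12 arrays; points are arrays, lines group means, and each panel has its own vertical scale. The mitosis list lies at 8.75 and 8.70 on the pre-CD8 arrays and at 6.67, 6.54 and 5.90 on the CD24 DC arrays, and the neutrophil marker list reaches 7.96 on pre-CD8 2 against 5.91 on pre-CD8 1.

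Several secreted mediators were among the genes with the largest rises. Of 27 chemokine and cytokine ligand genes measured, 13 were called higher and 2 lower, with a median of 1.45. Over all genes 2.65% were called higher and 3.66% lower, with a median of 0.05. Il1b, the inflammatory cytokine interleukin 1 beta, read 10.78, 10.99 and 11.50 in CD24 DCs and 5.65 and 5.37 in pre-CD8 cells, 47.8-fold higher (5.58, SE 0.32, adjusted p = 8.06e-07). Il12b, the shared subunit of interleukins 12 and 23, read 8.76, 9.08 and 9.34 against 4.97 and 5.07 (4.04, SE 0.23, adjusted p = 8.14e-07). The gene of its partner subunit, Il12a, differed by -0.09 and was not called. Cxcl9, a chemokine for CXCR3-bearing T cells, read 11.52, 11.66 and 11.69 against 7.16 and 8.16 (3.96, SE 0.31, adjusted p = 7.95e-06), and Cxcl10, a ligand of the same receptor, rose by 2.26 (SE 0.28, adjusted p = 0.000189). Ccl22, which attracts regulatory T cells through CCR4, read 8.26, 9.05 and 9.57 against 4.60 and 5.04 (4.14, SE 0.41, adjusted p = 4e-05), while Ccl17, its neighbour in function, differed by 0.10. Tnf rose by 3.81, Ccl2 by 3.69, Ccl4 by 3.62, Ccl5 by 3.51 and Ccl3 by 2.79. The ligands that fell were Ccl6 (-2.23, adjusted p = 0.00141) and Ccl9 (-1.66, adjusted p = 0.000278), both myeloid CC chemokines. Between 11 and 15 ligands were called higher when any array was left out, and the calls lost were those of Il15 and Il1a without pre-CD8 1.

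Of 30 costimulatory and checkpoint genes 12 were called higher and 3 lower, with a median of 0.51. The shares over all genes were 2.65% and 3.66%, and the median 0.05. Cd86, a ligand of CD28 and CTLA-4, read 10.65, 11.07 and 10.83 in CD24 DCs and 7.81 and 8.53 in pre-CD8 cells (2.68, SE 0.31, adjusted p = 0.000135). Cd80, its paralog, read 8.38, 9.84 and 9.89 against 6.01 and 5.84 (3.44, SE 0.37, adjusted p = 7.37e-05), with CD24 DC 1 the lowest of its group. Havcr2, the TIM-3 receptor, rose by 3.69 (SE 0.36, adjusted p = 3.17e-05), the DC surface gene Cd83 by 3.39 (SE 0.33, adjusted p = 3.65e-05), the PD-L1 gene Cd274 by 2.65 (SE 0.26, adjusted p = 3.32e-05) and Cd40 by 1.75 (SE 0.27, adjusted p = 0.00122). The PD-L2 gene Pdcd1lg2 (0.43), Icosl (0.05) and Cd70 (0.43) were not called. Cd48, a SLAM family ligand, fell by 1.33 (SE 0.21, adjusted p = 0.00123). Tnfsf8 and Lgals9 were also called lower, but not without pre-CD8 1 (adjusted p = 0.16 and 0.0871). Without that array the list held 8 higher calls and 1 lower.

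Trafficking genes moved in both directions. Of 32 chemokine and trafficking receptors 7 were called higher and 4 lower, where 2.65% and 3.66% of all genes were. Their median was 0.12, and that of all genes 0.05. Ccr2, which guides exit from the marrow, read 7.54, 7.72 and 6.20 in CD24 DCs and 10.33 and 10.79 in pre-CD8 cells (-3.41, SE 0.36, adjusted p = 6.24e-05). Ccr7, the receptor for migration into T cell zones, read 8.10, 8.90 and 10.27 against 5.43 and 5.99 (3.38, SE 0.48, adjusted p = 0.000599). CD24 DC 3 was the highest array for Ccr7 and the lowest for Ccr2. Itgb7, a partner chain of the CD103 and alpha 4 integrins, fell by 1.93 (SE 0.27, adjusted p = 0.000527) while Itgae rose. Itgax, the gene of CD11c, for which both groups were gated positive, rose by 1.94 (SE 0.28, adjusted p = 0.000631). Cxcr4 (0.07) and Cx3cr1 (-0.23) were not called.

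Antigen presentation genes were counted in a class II and a class I list. Of 22 class II presentation genes 3 were called higher and 1 lower. Of all genes, 2.65% were called higher and 3.66% lower. H2-Ab1 read 12.16, 12.06 and 12.35 in CD24 DCs and 11.57 and 11.98 in pre-CD8 cells (0.42, SE 0.41, adjusted p = 0.671), and H2-Aa differed by 0.42 as well (adjusted p = 0.665). All 3 CD24 DC arrays lay above both pre-CD8 arrays in these genes. The groups did not overlap in 28.8% of all genes, in either direction, and neither gene was called. The gate in the label reads MHC class II negative. H2-Eb1 differed by 1.00 (SE 0.28, adjusted p = 0.0541). The called genes were H2-Eb2 (2.40, adjusted p = 0.00319), H2-Oa and H2-Ob, the chains of the inhibitory H2-O molecule (1.22 and 1.19), and Ctsd, cathepsin D (-1.06). H2-Eb2 lost its call without pre-CD8 1 (adjusted p = 0.0591), and the other 3 in 4 of the 5 fits that left out an array. The MHC genes are close copies of each other, so single values are uncertain. Of 22 class I presentation genes 2 were called higher. They were Nlrc5, the class I transactivator (1.47, SE 0.24, adjusted p = 0.00162), and Cd1d1, which presents lipids (1.53, SE 0.26, adjusted p = 0.00235), whose call was lost without pre-CD8 1 (adjusted p = 0.0577). B2m (0.13), Tap1 (0.44) and the immunoproteasome gene Psmb8 (-0.17) were not called.

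**Figure D3:**
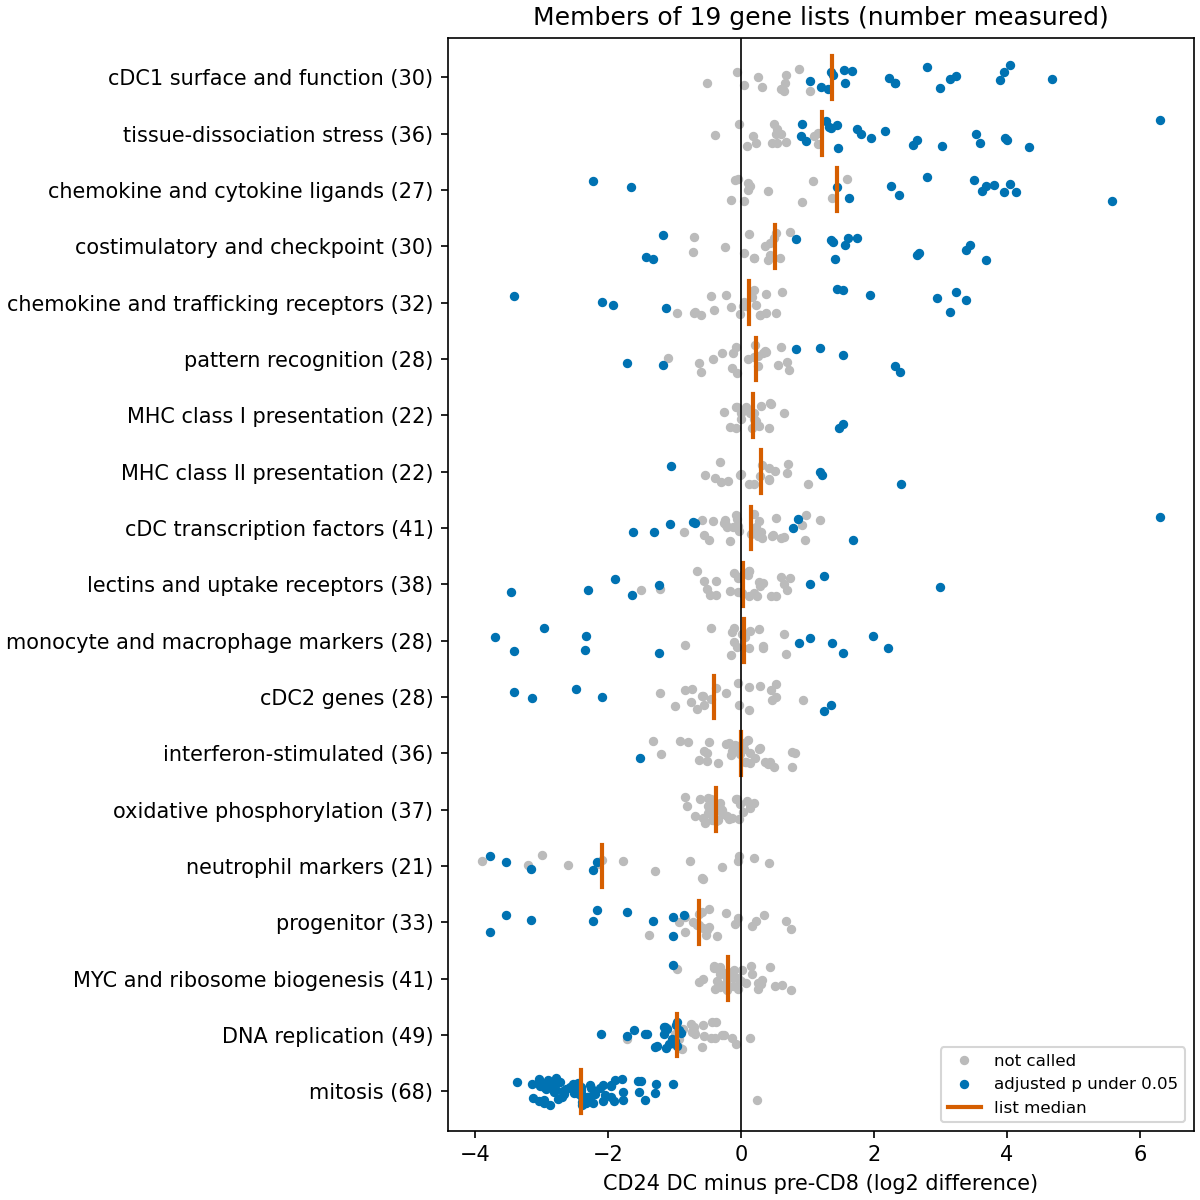
Log2 difference, CD24 DC minus pre-CD8, of every measured member of 19 gene lists; each point is a gene, blue where its adjusted p was under 0.05, and the orange line is the list median. The mitosis list (68 genes, median -2.41) lies apart from the DNA replication (median -0.96) and ribosome biogenesis (median -0.19) lists, and cDC1, stress and ligand genes spread to the right.

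Immediate-early and stress genes form a list drawn from genes known to be induced when tissue is dissociated. Of 36 measured, 21 were called higher and none lower, with a median of 1.22, where 2.65% of all genes were called higher. In 26 the arrays of the groups did not overlap, which held for 28.8% of all genes. Nr4a3 was the most raised of all genes that passed the test, at 9.95, 11.76 and 12.03 in CD24 DCs and 4.46 and 5.43 in pre-CD8 cells, 78.7-fold (6.30, SE 0.48, adjusted p = 7.95e-06). Nr4a1 read 10.64, 11.88 and 12.09 against 6.98 and 7.44 (4.33, SE 0.37, adjusted p = 1.31e-05), and Egr2 read 7.82, 9.39 and 9.82 against 4.97 and 5.04 (4.0, SE 0.46, adjusted p = 0.000113). In all 3 genes CD24 DC 1 was the lowest array of its group. Atf3 rose by 2.59 (SE 0.43, adjusted p = 0.00204), a call lost without pre-CD8 1 (adjusted p = 0.0542), and Fos by 1.28 (SE 0.29, adjusted p = 0.0152), a call lost without CD24 DC 3, pre-CD8 1 or pre-CD8 2. Jun (0.54), Jund (0.52), Cd69 (0.54), Hspa1a (1.16) and Hspa8 (-0.03) were not called. The list held 10 calls without pre-CD8 1, 13 without pre-CD8 2 and between 14 and 22 without any CD24 DC array. With all arrays kept, it held 20 under quantile normalization, 17 under median centring, 14 under a common scale and 16 with every probe set tested. Its mean level was 8.94, 9.20 and 9.46 in CD24 DCs and 7.44 and 7.70 in pre-CD8 cells. In the digested spleen cells of the other lineage it was 9.23 and 9.72, against 7.35 and 7.53 in the marrow pre-CD4 cells. The part that digestion has in these genes, or in the ligands and costimulatory genes above, was not tested.

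**Figure D4:**
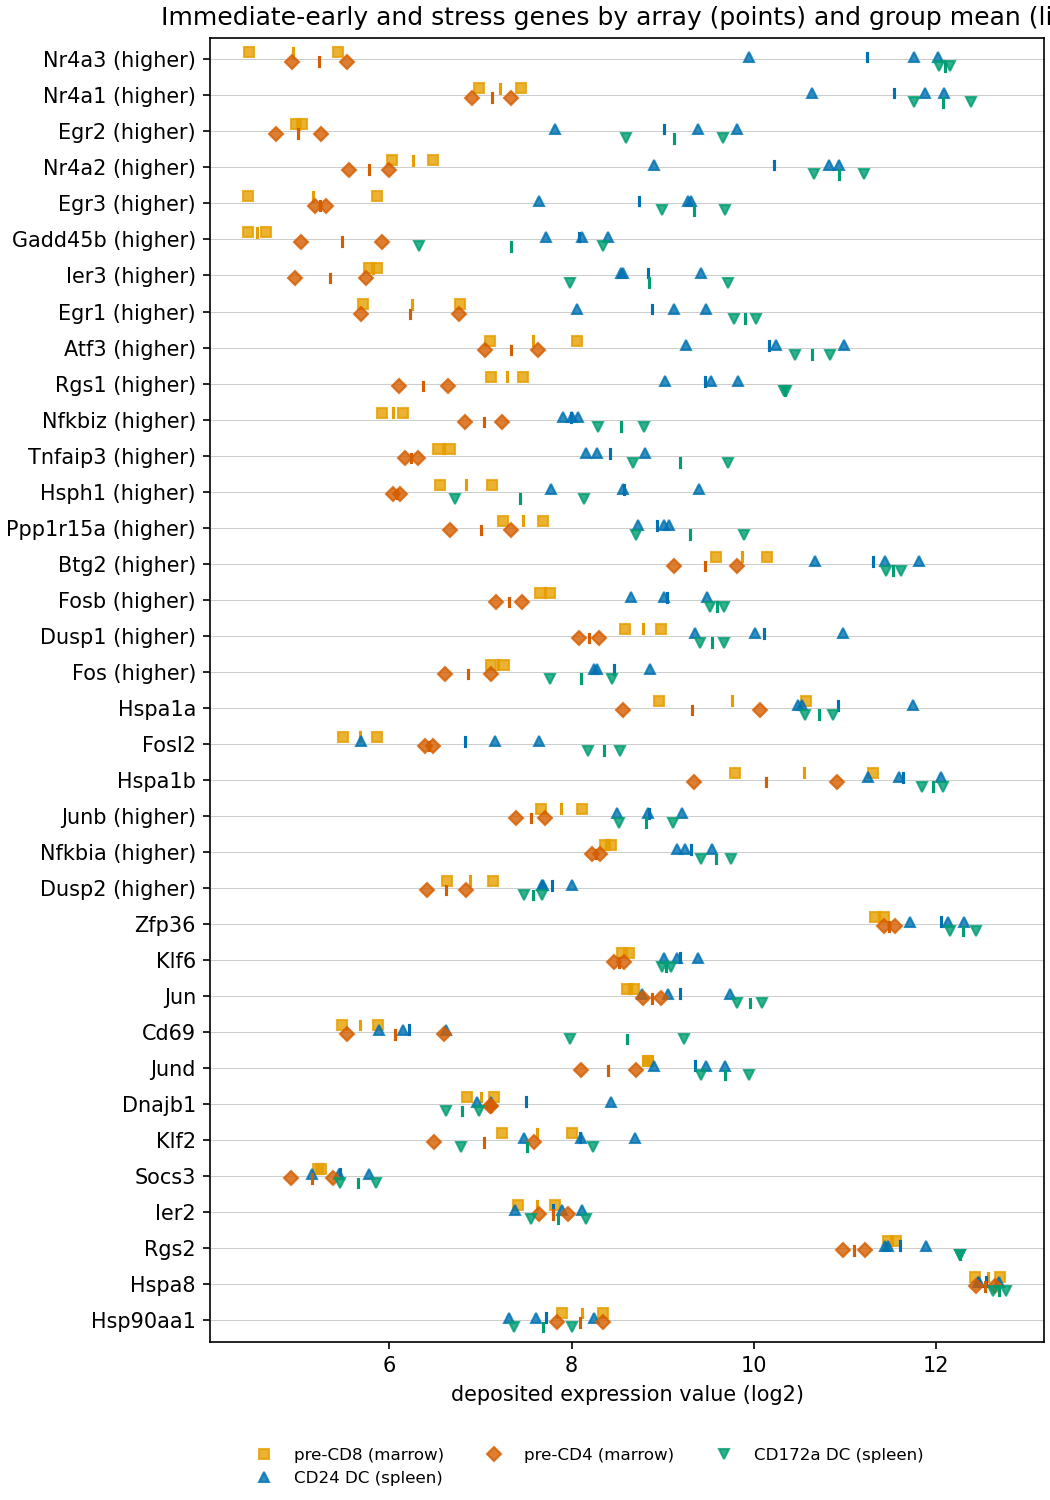
Deposited log2 values of 36 immediate-early and stress genes on the arrays of both marrow progenitors and both spleen populations; points are arrays, lines group means, and "(higher)" marks an adjusted p under 0.05 in CD24 DC against pre-CD8. Nr4a3 lies between 4.46 and 5.43 in pre-CD8 cells and between 9.95 and 12.03 in CD24 DCs, and the genes of both spleen populations lie to the right of the marrow ones in the upper part of the plot.

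A minority of progenitor and granulocyte genes was called, always lower in CD24 DCs, as were 3.66% of all genes. Of 33 progenitor genes 10 were called lower and none higher, with a median of -0.64. Of 21 neutrophil markers 5 were called lower, Mpo, Elane, Ctsg, Ms4a3 and Prtn3, all of which also stand in the progenitor list. These encode or mark the primary granules made by early myeloid cells. Mpo, myeloperoxidase, read 4.91, 5.89 and 6.57 in CD24 DCs and 9.06 and 10.08 in pre-CD8 cells (-3.78, SE 0.43, adjusted p = 9.84e-05). Elane, neutrophil elastase, read 4.41, 5.20 and 5.62 against 7.53 and 9.71 (-3.54, SE 0.61, adjusted p = 0.0025). The other 16 neutrophil markers were not called, and the list median was -2.09. S100a8, a calcium-binding protein of mature neutrophils, read 4.61, 9.52 and 4.52 in CD24 DCs and 8.28 and 11.95 in pre-CD8 cells (-3.90, SE 1.71, adjusted p = 0.257). The neutrophil list mean was 5.91 and 7.96 on the pre-CD8 arrays and 4.71, 5.77 and 5.11 on the CD24 DC arrays, so array 2 was the highest of both groups. The 5 calls became 11 without pre-CD8 1, all lower, with a median of -2.95. Of 15 basophil, mast cell and eosinophil markers 5 were lower, led by the basophil protease gene Mcpt8, which read 3.83, 4.10 and 5.16 against 7.72 and 8.82 (-3.91, SE 0.55, adjusted p = 0.000576). Cpa3 (-2.36) was the other one called in all 5 fits that left out an array. The part that granulocytes in the sort have in these differences was not tested.

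The growth factor receptors by which the progenitors were gated were not called. Kit, gated intermediate in pre-CD8 cells, read 9.70, 9.63 and 9.79 in CD24 DCs and 8.85 and 9.23 in pre-CD8 cells (0.67, SE 0.21, adjusted p = 0.0917). Flt3, the CD135 gene, read 10.24, 10.02 and 10.08 against 9.19 and 9.53 (0.75, SE 0.23, adjusted p = 0.0733). For both genes every CD24 DC array lay above both pre-CD8 arrays, as in 28.8% of all genes in either direction, and neither passed the test. Cd34, a stem and progenitor surface gene, fell by 1.72 (SE 0.31, adjusted p = 0.00382), a call lost without pre-CD8 1 (adjusted p = 0.0945), and without that array 6 progenitor genes were called.

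Markers of other lineages gave the following counts, where 2.65% of all genes were called higher and 3.66% lower. Of 28 monocyte and macrophage genes 6 were called lower and 6 higher. Without pre-CD8 1 there were 5 and 2, and the calls of Cd14, Vcam1, Timd4 and Apoe were lost (adjusted p = 0.051, 0.354, 0.267 and 0.483). The lower ones were led by Ms4a6c (-3.70, SE 0.45, adjusted p = 0.000171), Ccr2 and Ly6c2, the monocyte antigen Ly-6C (-2.97, SE 0.40, adjusted p = 0.000363), and the higher ones by Hmox1, heme oxygenase 1 (2.21, SE 0.22, adjusted p = 4e-05), and Spic, the factor of red pulp macrophages (1.98, SE 0.21, adjusted p = 5.81e-05). Hmox1 read 7.94, 7.72 and 8.37 against 5.68 and 5.93, and Spic 6.88, 6.85 and 7.25 against 4.88 and 5.16. The macrophage genes C1qa (0.06) and Adgre1 (0.64) were not called, and the list mean was 5.71 to 5.88 in CD24 DCs and 5.89 and 6.20 in pre-CD8 cells. Of 28 cDC2 genes 4 fell, Ccr2, Ms4a4c, S100a4 and Itgam, and 2 rose, Clec7a and Ltb, whose calls were lost without pre-CD8 1. Of 17 B cell genes, Ms4a1, the CD20 gene, rose by 3.48 (SE 0.24, adjusted p = 3.14e-06) from 4.70 and 4.55 to 8.42, 7.94 and 7.95, and Cd22 fell by 1.71 (SE 0.24, adjusted p = 0.000598). Cd79a, which defines B cells, was at 4.04 to 4.84 on all 5 arrays (-0.04, adjusted p = 0.961). No gene of 15 T cell markers was called, and Cd3e lay between 3.78 and 4.75. Of 18 NK cell genes the ligand Ccl5 rose and Nkg7 fell, and Ncr1 differed by -0.06. Of 20 pDC genes 3 were lower and 1 higher (1 and 0 without pre-CD8 1), of 11 erythroid genes 1 was lower (Tfrc, -1.28), and of 13 megakaryocyte genes 1 was higher (Gp9, 1.08). Without pre-CD8 1 the calls of Nkg7, Tfrc and Gp9 were lost (adjusted p = 0.112, 0.126 and 0.139). Their part in the results above was not tested.

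Outside the lists, several of the genes with the largest differences are described here. Apol7c, an apolipoprotein L family member, read 11.54, 11.18 and 10.69 in CD24 DCs and 5.75 and 4.79 in pre-CD8 cells (5.87, SE 0.44, adjusted p = 7.86e-06). Dnase1l3, a secreted DNase that degrades DNA from dying cells, read 10.40, 10.32 and 10.28 against 3.83 and 5.20 (5.82, SE 0.32, adjusted p = 8.06e-07). Adam23, a disintegrin family surface protein, read 10.20, 10.32 and 10.20 against 3.83 and 5.06 (5.80, SE 0.32, adjusted p = 8.06e-07). In each of these genes the CD24 DC arrays lay close together and far above the higher pre-CD8 array. Rasgef1b, a Ras-family exchange factor gene, rose by 5.04 (SE 0.38, adjusted p = 7.92e-06) and the tetraspanin gene Cd81 by 4.48 (SE 0.34, adjusted p = 7.95e-06). Among genes that fell, S100a10, the annexin A2 ligand p11, read 7.38, 7.26 and 5.69 against 11.24 and 10.25, a 15.7-fold fall (-3.97, SE 0.43, adjusted p = 7.43e-05). Lgals1, galectin 1, read 8.06, 7.41 and 6.45 against 11.45 and 10.37 (-3.61, SE 0.42, adjusted p = 0.000116). Cd226, the adhesion receptor DNAM-1, read 5.61, 5.43 and 4.54 against 9.0 and 8.64 (-3.62, SE 0.27, adjusted p = 7.92e-06). Emb, the adhesion protein embigin, fell by 3.59, and Clec4b1, a member of the lectin list, by 3.46.

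Counts for survival, lysosome, sensing and metabolic lists stand beside shares of 2.65% higher and 3.66% lower among all genes. Bcl2, which blocks cell death, fell by 1.72 (SE 0.34, adjusted p = 0.00747), a call lost without pre-CD8 1 (adjusted p = 0.135). Its relative Bcl2a1a, whose close copies on the array make the value uncertain, rose by 3.64 (SE 0.36, adjusted p = 3.77e-05), and the death receptor gene Fas by 2.34 (SE 0.28, adjusted p = 0.000158). In all, 5 of 19 survival genes were called higher and 2 lower. Of 28 pattern recognition genes 5 were higher and 2 lower, of 38 lectin and uptake genes 3 and 5, and of 30 lysosome genes 2 and 1. Without pre-CD8 1 these counts were 2 and 0 for survival, 1 and 0 for pattern recognition, 1 and 3 for lectins and 1 and 0 for lysosome genes. The largest lysosome difference was that of Gusb, beta-glucuronidase (1.63, SE 0.22, adjusted p = 0.000363). Of 36 interferon-stimulated genes 1 fell, Cmpk2 (-1.52, adjusted p = 0.00193), and the list median was 0.00; the call was lost without pre-CD8 1 (adjusted p = 0.0509). No gene was called among 37 of oxidative phosphorylation (median -0.38) and 17 of cholesterol synthesis (median -0.46). Of 22 glycolysis genes 1 was called, Pfkfb3, which makes an activator of phosphofructokinase (1.25, SE 0.21, adjusted p = 0.00204).

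The step was then compared with that of the other lineage, CD172a DC minus pre-CD4, in which spleen and marrow differ in the same way. No arrays are shared between these differences. Over the 22180 genes they correlated at r = 0.645, a description across genes, which are not independent replicates. In the CD172a lineage 1041 genes (4.69%) were called higher and 1779 (8.02%) lower. Of the genes called higher in CD24 DCs 316 were also called higher in CD172a DCs, 53.8% of the former and 30.4% of the latter. Of the genes called lower 571 were shared, 70.3% and 32.1%, and 18 were called in opposite directions. The difference between the lineages was tested as an interaction contrast of these 4 groups, and 229 genes (1.03%) were called, 111 (0.5%) with the larger value in the CD24 lineage and 118 (0.532%) in the CD172a lineage. Of the 1399 genes called in the CD24 lineage, 89 were among them. None of the 68 mitosis, 49 DNA replication or 36 stress genes was, and 6 of the 30 cDC1 genes were. At a share of 1.03%, lists of these sizes would hold few or no calls. The missing calls therefore do not show that the lineages changed alike. Without pre-CD4 1 the count was 99, without pre-CD4 2 it was 125, without CD172a DC 1 it was 130 and without pre-CD8 1 it was 145.

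Irf8 and Id2 differed between the lineages. Irf8 fell by 3.60 in the CD172a lineage, from 12.05 and 11.92 in pre-CD4 cells to 7.97 and 8.80, and the difference between lineages was 3.36 (SE 0.35, adjusted p = 0.000485). Id2, which binds E proteins and blocks them, rose by 3.10 there, from 5.40 and 5.46 to 8.34 and 8.74, so the difference was -3.19 (SE 0.30, adjusted p = 0.000143). In the CD24 lineage neither gene was called. Kit rose by 3.74 in the CD172a lineage, and the difference was -3.08 (SE 0.31, adjusted p = 0.000383). Among cDC1 genes, Cd8a rose in both lineages, by 2.06 in CD172a DCs, with a difference of 2.63 (SE 0.47, adjusted p = 0.0168) that was not called without CD172a DC 1 or without either pre-CD4 array (adjusted p = 0.0518 to 0.0942). Il12b differed by 2.39 (SE 0.35, adjusted p = 0.00392). Cadm1 and Itgae differed by 2.69 and 2.73 (adjusted p = 0.0211 and 0.0183), and each lost its call without any of 5 arrays, pre-CD8 1 among them. Laptm4b, a lysosomal membrane protein gene, read 8.30, 9.45 and 9.48 in CD24 DCs and 5.64 and 5.37 in pre-CD8 cells, and 6.33 and 6.06 in CD172a DCs beside 5.94 and 6.09 in pre-CD4 cells (difference 3.39, SE 0.48, adjusted p = 0.00334). Ptgs2, cyclooxygenase 2, rose by 1.66 in the CD24 lineage and by 6.64 in the CD172a lineage (difference -4.98, SE 0.36, adjusted p = 2.1e-05).

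**Figure D5:**
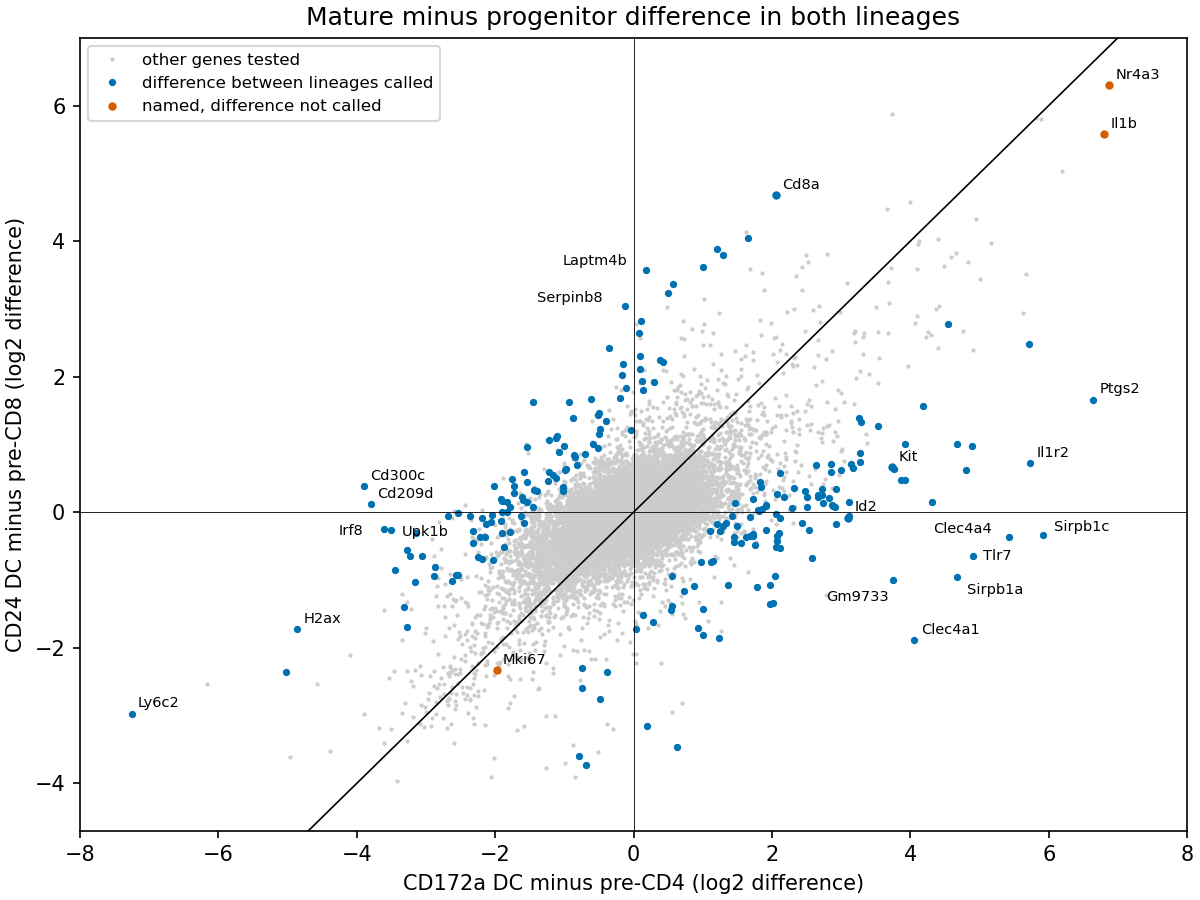
Each point is a gene: the horizontal axis gives the CD172a DC minus pre-CD4 difference and the vertical axis the CD24 DC minus pre-CD8 difference, both in log2; blue points have a difference between the lineages with adjusted p under 0.05, and the diagonal marks equal differences. Nr4a3, Il1b and Mki67 lie near the diagonal and were not called, while Irf8 (-3.60 and -0.24) and Tlr7 (4.90 and -0.64) lie far from it.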

How the data were processed

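Amplification of sorted-cell RNA used NuGEN's Ovation Pico WTA kit, and biotin labelling the Encore kit, before the product was hybridised to arrays, per the labels' protocols. The authors deposited log2 expression values, 1 for each probe set on each array, from 0.84 to 13.09 over 35145 probe sets and 12 arrays. How background was corrected and arrays were normalized is not given in the sources used here. No detection calls were used, and the number of arrays limits the precision (median SE 0.24).

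Probe sets with 1 gene symbol were kept (23521, against 1814 with several and 9810 with none), and the probe set with the highest mean stood for the 1082 genes that had several, which left 22180 genes. One limma 3.58.1 fit (R 4.3.3, lmFit and eBayes) of 5 group means over all 12 arrays gave the comparisons, two-sided, with Benjamini-Hochberg adjustment and a threshold of 0.05. It had 7 residual and 6.19 prior degrees of freedom. The fit was tested on simulated data. The members and the gene lists were chosen with earlier results of these data known. Named genes were the 12 non-overlapping called genes of largest difference per direction, up to 5 called genes per list and direction, a fixed panel, and the 8 called genes with the largest lineage difference in each direction. Other list members stand as examples picked after their values were seen. Promoter sequences and miRNA sequences are RefSeq's (GRCm38.p6), matched by symbol. Alternatives covered scaling, dim genes, probe sets, the arrays fitted, array weights, a replicate block and each array left out.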

Additional observations from a re-analysis of the deposited data

Results flagged for a closer look

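The difference between the maturation steps of the lineages, (CD24 DC minus pre-CD8) minus (CD172a DC minus pre-CD4), was itself tested with limma, and 229 genes had an adjusted p under 0.05. The genes with the largest such differences are given here, 8 in each direction.

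On the positive side, Cd300c, a CD300 receptor family gene, differed by 4.29 (SE 0.40, adjusted p = 0.000143). It fell by 3.89 in the CD172a lineage and differed by 0.39, not called, in the CD24 lineage. Ly6c2 differed by 4.28, falling by 2.97 in the CD24 lineage and by 7.25 in the other. Cd209d (3.93), Irf8 (3.36) and Upk1b (3.23) fell in the CD172a lineage and were not called in the CD24 lineage. Laptm4b (3.39) and Serpinb8 (3.17) rose in the CD24 lineage and were at 0.18 and -0.13 in the other. H2ax, a histone variant gene, differed by 3.14, with falls in both.

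On the negative side, Sirpb1c differed by -6.26, Clec4a1 by -5.94, Clec4a4 by -5.79, Sirpb1a by -5.63 and Gm9733 by -4.75. Each rose in CD172a DCs, and of these only Clec4a1 was also called in the CD24 lineage, where it fell by 1.89. The Sirpb1 and Clec4a genes are families of close copies, so single values are uncertain. Tlr7, the endosomal receptor for single-stranded RNA, differed by -5.55, rising by 4.90 in the CD172a lineage against -0.64 in the CD24 lineage. Il1r2, the decoy receptor for interleukin 1, differed by -5.00 and Ptgs2 by -4.98. The calls of Serpinb8 and Il1r2 were lost when single arrays were left out.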

How the results depend on the processing

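The 1399 genes called (587 higher, 812 lower) became 683 (311 and 372) when only the CD24 DC and pre-CD8 arrays were fitted and 2556 (1186 and 1370) with array weights. Leaving out each array in turn gave 571 to 1942 calls, 250 to 777 higher and 321 to 1165 lower, the lowest without pre-CD8 1 and the highest without CD24 DC 1. The 229 lineage differences became 152 with every probe set tested, 134 with only the arrays of these groups, 481 with array weights, 404 with the array interquartile range as a covariate (an alternative chosen after seeing the data), and 99 to 278 with each array left out. The causes were not tested. Quantile scaling, median centring, a common scale, a filter on dim genes, the mean of probe sets and trend with robust estimation kept the count of calls within 1.5 times. Counts within single lists could move further, as for the DNA replication list. No named gene changed direction under an alternative if it was called in the main fit or in that alternative. Changes of sign in genes called in neither were not counted.

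The comparison has 2 pairs of arrays with the same number, too few to read as pairing. With the replicate number as a block, 1319 genes were called (591 higher, 728 lower) and 292 for the lineage difference. Deviations from the group means of same-numbered arrays correlated at 0.419 and 0.102, and those of differently numbered arrays at -0.419 to 0.357. The deviations of the 2 pre-CD8 arrays mirror each other, so the value of each CD24 DC array recurs with the opposite sign. Values for same and different numbers are therefore not independent. With 2 and 3 arrays a group, and no detection calls, differences of genes near background are the least certain.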

Other observations

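Some gene families were grouped after the values were seen, and a few of their members also stand in the lists. Among all genes, 2.65% were called higher and 3.66% lower. Of 29 linker and core histone genes 12 were called lower and none higher, with a median of -1.04. H2bc12 fell by 3.20 (SE 0.59, adjusted p = 0.00441) and H1f5 by 3.18 (SE 0.53, adjusted p = 0.00212). Histone genes are close copies, so single values are uncertain. Of 20 centromere protein (Cenp) genes 16 fell, with Cenpf, also a member of the mitosis list, at -2.94, and Cenpv rose by 0.99. Of 25 serpin B protease inhibitor genes 4 rose, led by Serpinb6b (3.80, SE 0.28, adjusted p = 6.94e-06), and Serpinb1a fell by 1.94. Of 10 guanylate-binding protein genes 4 rose (Gbp8 2.66, Gbp4 2.48, Gbp5 1.83, Gbp9 1.76). S100a10 fell together with the genes of the calcium-binding proteins S100a4 and S100a6 (-2.04), the only others of 16 S100 genes called, and with Anxa2 (-2.71).

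Of 469 microRNA genes 7 were called higher and 10 lower, a share of 3.62% that lies below the 6.31% of all genes. The array reads the gene's transcript, not the mature arm. In the cluster on chromosome 14, Mir17 fell by 1.95 (SE 0.41, adjusted p = 0.0102), Mir18 by 1.90 (SE 0.44, adjusted p = 0.0185) and Mir20a by 1.22 (SE 0.22, adjusted p = 0.00428). The mature 5p arms of Mir17, Mir18 and Mir20a and the mature sequence of Mir1950 are shown with the seed, bases 2 to 8, in capitals. The 3p arms and any other members of the cluster are left out.
miR-17-5p: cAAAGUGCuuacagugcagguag
miR-20a-5p: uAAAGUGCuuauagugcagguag
miR-18a-5p: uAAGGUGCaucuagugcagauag
miR-1950: uCUGCAUCuaaggauaugguca
The first 2 share the seed AAAGUGC. Mir1950 fell by 3.52 (SE 0.35, adjusted p = 3.85e-05) and lies at chr19:34965396-34965469 (GRCm38.p6), within the span of the mitotic kinesin gene Kif20b (-2.97, adjusted p = 6.91e-05). Mir3109 (-1.79) lies within Anxa2 and Mir340 (-1.71) within Rnf130 (-1.15, adjusted p = 0.0114). Of 9 called microRNA genes within the span of a measured gene, the spanning gene was called in these 3 and not in 6. The 6 were Mir3066 (Nol10, -0.02), Mir5124a (Gcnt2, 0.83), Mir1967 (Urb2, -0.57), Mir135b (Lemd1, -0.02), Mir181a-2 (Nr6a1, 0.28) and Mir5125 (Srrm2, 0.43), with the spanning gene's difference in parentheses. Spans were compared without regard to strand, which was not checked.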
